A study of Mus musculus with 2 samples.

Results

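The genes described here are 9 members of the interferon response: the transcription factors *Stat2*, *Irf9*, *Irf1* and *Irf7*, the RNA sensor *Ifih1*, the ubiquitin-like modifier *Isg15* and the antiviral effectors *Ifit1*, *Ifit2* and *Ifit3*. They were chosen with earlier results of these data known and taken by symbol from the count tables, where all 9 symbols were present among 19059 genes. They were followed as unique molecular identifiers (UMIs) per 1000000 UMIs (CPM) in single-nucleus RNA-seq of 8 mouse tumors, 4 untreated and 4 treated with Minnelide at 0.42 mg/kg for 21 days. All tumors were dFLEx CDS tumors, 1 count table per tumor, and p-values here measure the spread between these tumors. In that model the fusion oncogene CIC::DUX4 is placed in a FLEx cassette under the CAG promoter, and electroporation of Cre and FLPE plasmids into the hind limb muscle of the mouse starts a sarcoma in place. The labels gave the genotype as dFLEx CDS +/- on the untreated sample and no genotype on the treated one, and gave neither age nor strain. Minnelide, a prodrug that dissolves in water, releases triptolide, which binds the XPB subunit of TFIIH and blocks transcription by RNA polymerase II, and mice received it daily by intraperitoneal injection once a tumor could be felt. The file names carried the word responder for Minnelide tumors 1 and 2 and nonresponder for Minnelide tumors 3 and 4, words that the sample labels did not give, so these tumors are named beside their values and were not compared as groups.

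Interferons signal through cell surface receptors and kinases of the JAK family, such as JAK1 and TYK2, which phosphorylate STAT proteins. STAT2 and IRF9 are subunits of ISGF3, the complex that binds the interferon-stimulated response element (ISRE) in the promoters of antiviral genes. IRF1 and IRF7 are themselves induced and drive further antiviral and interferon genes. IFIH1, also called MDA5, detects long double-stranded RNA in the cytoplasm. ISG15 is attached to other proteins in a ubiquitin-like way, and IFIT proteins bind foreign RNA and limit its translation. In tumors, tumor cells, fibroblasts, endothelial cells and macrophages can all run this program.

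The tumors held 4470 to 10368 retained nuclei each, with 15997957 to 62498892 UMIs. Untreated tumor 4 was the shallowest, with a median of 880 UMIs per retained nucleus against 2430 to 4056 in the other tumors. Each untreated tumor shared 49 to 132 cell barcodes with the Minnelide tumor of the same number and none with any other tumor. The 4 untreated tumors formed one deposited sample and the 4 Minnelide tumors the other, so a difference in handling between these samples and the treatment cannot be told apart. Nuclei were clustered within each tumor and named from markers, with the members, the interferon genes of the lists below and the markers left out of the clustering. Interferon-inducible genes outside these lists could enter it, so the clusters are not independent of the interferon response. In untreated tumor 3, a cluster of 118 nuclei named tumor-like had *Cxcl9*, *Cxcl10*, *Gbp4* and *Iigp1* among its leading genes. Between 962 and 6784 nuclei per tumor were tumor-like by 8 target genes of CIC::DUX4, among them *Etv4*, *Etv5*, *Vgf* and *Spred2*. In untreated tumor 1, 43.4% of retained nuclei stayed unnamed, against 0% to 23.3% in the other tumors. That tumor also stood apart in its immune markers: its 11 T and NK cell markers summed to 126 CPM, against 9.94 to 24.5 CPM in the other untreated tumors and 3.53 to 11.2 CPM in the Minnelide tumors. No cluster of untreated tumor 4 was named macrophage-like, and none of Minnelide tumors 1 and 4 was named pericyte-like. This describes the naming and does not show that such cells were absent. Summed macrophage markers were at least 277 CPM in every untreated tumor, and pericyte markers at least 493 CPM in every Minnelide tumor. In Minnelide tumor 1, a cluster of 237 nuclei named tumor-like shared *Gucy1a2*, *Pde3a* and *Mrvi1* among its leading genes with the pericyte-like cluster of Minnelide tumor 3.

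The 250 bases before the start of the canonical transcript were searched for interferon motifs. The last 150 of these bases, or 217 for *Stat2* to reach its match, are shown to mark where these letters stand. They are given for the 4 members with a match to the ISRE core and for *Irf1*, with a match to the STAT dimer (GAS) motif. They were not picked by level: for *Isg15* and *Ifit1* the groups of tumors overlapped, and *Ifit2*, also with a GAS match, is not shown. Positions are from GRCm39 with the GENCODE M39 annotation, sequences run 5′ to 3′ up to the base before the transcript start, and capitals mark the motif matches.
Stat2, chr10:128106135-128106351, plus strand: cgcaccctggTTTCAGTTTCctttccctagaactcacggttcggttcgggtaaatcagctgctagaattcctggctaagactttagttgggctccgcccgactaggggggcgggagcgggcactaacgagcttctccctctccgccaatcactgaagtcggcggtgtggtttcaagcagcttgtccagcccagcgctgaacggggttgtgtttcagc
Irf1, chr11:53660691-53660840, plus strand: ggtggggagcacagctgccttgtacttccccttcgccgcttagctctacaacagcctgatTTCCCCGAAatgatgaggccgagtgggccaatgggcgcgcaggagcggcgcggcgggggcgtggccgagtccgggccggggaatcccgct
Isg15, chr4:156285304-156285453, minus strand: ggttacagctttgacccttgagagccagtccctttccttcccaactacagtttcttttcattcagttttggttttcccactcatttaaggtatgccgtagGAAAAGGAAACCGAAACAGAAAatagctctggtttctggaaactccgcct
Ifit1, chr19:34618121-34618270, plus strand: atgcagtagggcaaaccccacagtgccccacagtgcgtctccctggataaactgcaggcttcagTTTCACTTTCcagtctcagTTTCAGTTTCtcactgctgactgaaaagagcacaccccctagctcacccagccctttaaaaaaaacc
Ifit3, chr19:34560749-34560898, plus strand: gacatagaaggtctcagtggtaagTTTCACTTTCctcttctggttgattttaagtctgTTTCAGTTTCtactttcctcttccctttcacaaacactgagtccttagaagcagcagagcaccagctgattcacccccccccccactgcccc
The ISRE core was searched as GAAA, any 2 bases and GAAA again, and the GAS motif as TTCNNNGAA, each on both strands. The ISRE core was found in 4 of the 9 members (*Stat2*, *Isg15*, *Ifit1* and *Ifit3*) and in 631 of the 18953 promoters of protein-coding genes in the count tables (3.33%). *Isg15* held 3 matches that overlap one another, between 50 and 29 bases before its start. *Ifit1* held its pair of matches 86 to 77 and 67 to 58 bases before the start, and *Ifit3* held its pair 126 to 117 and 92 to 83 bases before. The GAS motif was found in *Irf1*, 90 to 82 bases before the start, and in *Ifit2*, and in 7.29% of all these promoters. *Irf7*, *Irf9* and *Ifih1* had neither set of letters in this window. The 9 genes lie on chromosomes 2, 4, 7, 10, 11, 14 and 19, where *Ifit2* (chr19:34527932-34554524), *Ifit3* (chr19:34560899-34566443) and *Ifit1* (chr19:34618271-34632174) are neighbours on the plus strand.

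In all retained nuclei every one of the 9 members had a lower mean level in the Minnelide tumors than in the untreated tumors, by log2 fold changes from -0.50 for *Irf9* to -1.57 for *Ifit3*, where 49.3% of genes tested had a negative fold change. For 6 members, *Stat2*, *Irf1*, *Irf9*, *Ifih1*, *Ifit2* and *Ifit3*, all 4 Minnelide tumors lay below all 4 untreated tumors, a pattern that 6.93% of the 13811 genes tested also had. None of the 9 passed the adjusted threshold in edgeR, which called 0% of genes (adjusted p from 0.464 to 0.684). At an unadjusted p under 0.05, 7 of the 9 were lower and 0 higher, where 7.49% of all genes tested were lower and 2.47% higher. DESeq2 called 2 members, *Stat2* (adjusted p = 0.0238) and *Ifit3* (adjusted p = 0.0139), where it called 1.14% of genes. CPM is a share of a tumor's UMIs, so a general change in RNA per nucleus is not visible in it, and fewer nuclei of a class and less RNA per nucleus cannot be told apart in sums over all nuclei.

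*Stat2*, the ISGF3 subunit with the transactivation domain (chr10:128106352-128128735), was measured at 50.6, 30.5, 40.2 and 32.3 CPM in untreated tumors 1 to 4. In Minnelide tumors 1 to 4 it was measured at 23.7, 18.6, 21.1 and 21.4 CPM. The groups did not overlap, with means of 38.4 ± 9.15 and 21.2 ± 2.06 CPM (SD, n = 4 each), and the Minnelide tumors were the more alike. The log2 fold change was -0.70 ± 0.16 (SE; edgeR adjusted p = 0.464), and the exact two-sided permutation test of log2(CPM + 1) gave p = 0.0286, the smallest that 70 splits of 8 tumors allow.

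*Irf9*, the DNA-binding subunit of ISGF3 (chr14:55841028-55847812), had 18.2, 10.4, 11.2 and 10.8 CPM in the untreated tumors. Its levels in the Minnelide tumors were 7.62, 7.72, 8.07 and 8.61 CPM. Again no Minnelide tumor reached the lowest untreated one, although the gap was small outside untreated tumor 1. The log2 fold change was -0.50 ± 0.19 (SE; edgeR adjusted p = 0.476; exact permutation p = 0.0286). The first bases of the gene overlap *Rnf31* on the same strand, so UMIs there are uncertain.

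*Irf1* (chr11:53660812-53669200), a factor induced by interferon gamma, had 40.1, 22.7, 20.6 and 17.2 CPM in the untreated tumors. In the Minnelide tumors it had 11.1 and 7.54 CPM in tumors 1 and 2, whose files carry the word responder, and 16.0 and 15.6 CPM in tumors 3 and 4, whose files carry nonresponder. All untreated tumors were higher than all Minnelide tumors, but untreated tumor 4 lay close to Minnelide tumor 3. The log2 fold change was -0.83 ± 0.31 (SE; edgeR adjusted p = 0.472; exact permutation p = 0.0286).

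*Irf7* (chr7:140842619-140846398), the factor that amplifies type I interferon transcription, was sparse and uneven among the untreated tumors, at 3.92, 1.34, 0.71 and 0.38 CPM. The Minnelide tumors had 0.45, 0.55, 0.37 and 1.38 CPM, so the groups overlapped, and untreated tumor 1 held 199 of the 251 untreated UMIs. The log2 fold change was -1.05 ± 0.73 (SE; edgeR adjusted p = 0.631; exact permutation p = 0.343), and without untreated tumor 1 it was -0.19 ± 0.61.

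*Ifih1* (chr2:62425714-62476607), the double-stranded RNA sensor, had 22.6, 14.9, 13.2 and 10.8 CPM in the untreated tumors. The Minnelide tumors had 6.22, 9.41, 7.20 and 7.87 CPM, all below the lowest untreated tumor. Group means were 15.4 ± 5.10 and 7.67 ± 1.34 CPM (SD, n = 4 each). The log2 fold change was -0.83 ± 0.24 (SE; edgeR adjusted p = 0.464; exact permutation p = 0.0286).

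*Isg15* (chr4:156283883-156285303) had 3.90, 2.58, 2.71 and 1.75 CPM in the untreated tumors. In the Minnelide tumors it had 2.37, 0.62, 1.77 and 2.12 CPM. The groups overlapped, with Minnelide tumor 2 the lowest of the 8 tumors. Its log2 fold change of -0.51 ± 0.43 (SE; edgeR adjusted p = 0.684; exact permutation p = 0.171) was about the size of its error.

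The *Ifit* genes had the largest fold changes of the members. *Ifit2* had 5.30, 2.82, 6.01 and 3.81 CPM in the untreated tumors and 1.52, 2.38, 1.42 and 2.18 CPM in the Minnelide tumors. The groups were apart, and the log2 fold change was -1.11 ± 0.34 (SE; edgeR adjusted p = 0.464; exact permutation p = 0.0286). *Ifit3* had 2.95, 2.43, 2.04 and 0.88 CPM in the untreated tumors and 0.58, 0.77, 0.53 and 0.63 CPM in the Minnelide tumors. Untreated tumor 4 was closer to the Minnelide tumors than to the other untreated ones, and the log2 fold change was -1.57 ± 0.39 (SE; edgeR adjusted p = 0.464; exact permutation p = 0.0286). The canonical transcripts of *Ifit3* and *Ifit3b* are 95.4% identical, so their UMIs are hard to assign to one or the other. *Ifit1* had 2.48, 2.58, 2.71 and 0.56 CPM in the untreated tumors and 0.54, 0.77, 0.53 and 0.92 CPM in the Minnelide tumors. Untreated tumor 4 lay inside the Minnelide range on 9 UMIs, and the log2 fold change was -1.46 ± 0.50 (SE; edgeR adjusted p = 0.464; exact permutation p = 0.0857). *Ifit1* overlaps *Ifit1bl2* on the opposite strand.

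**Figure D1:**
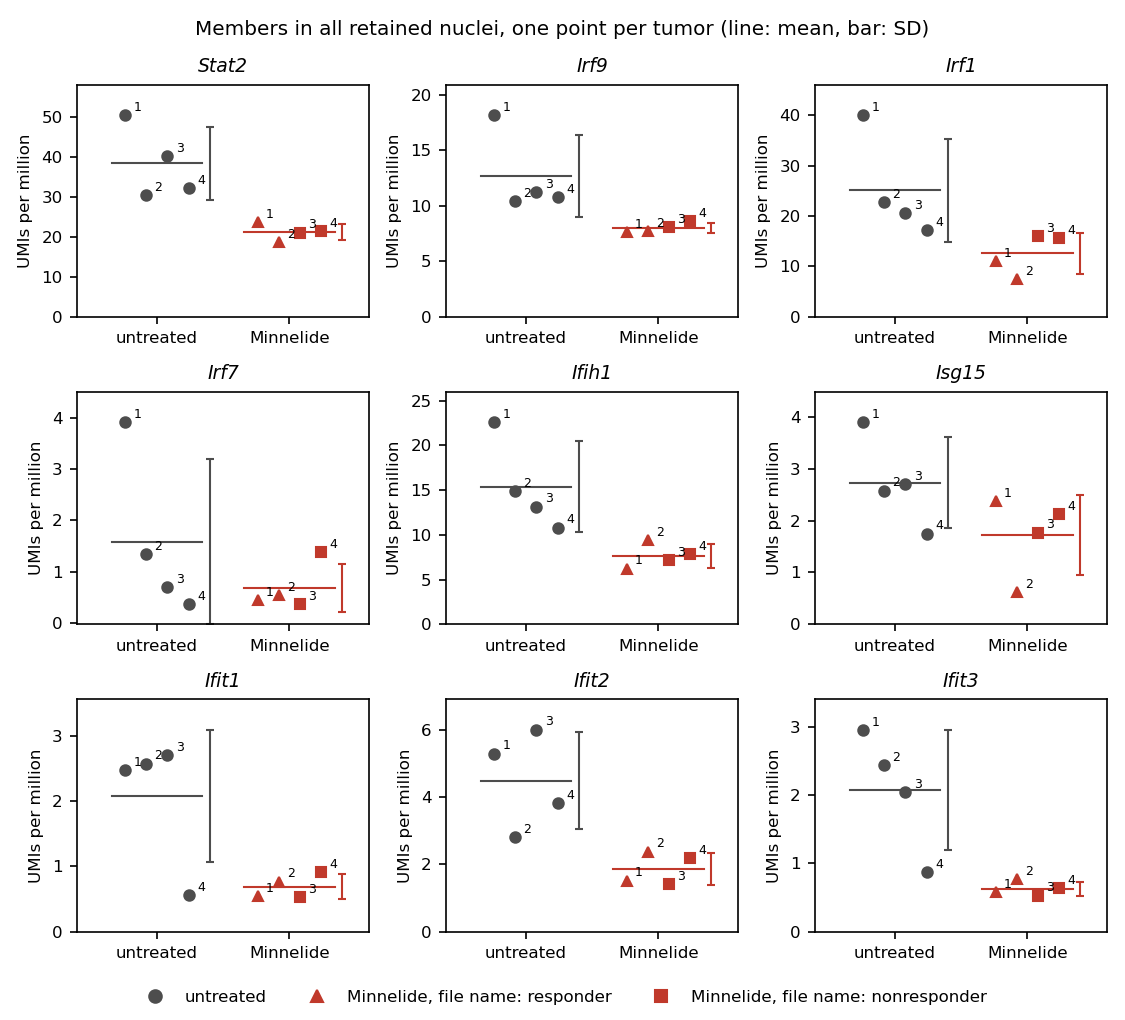
CPM of each member in all retained nuclei, 1 point per tumor with the tumor number beside it (lines are group means, bars are SD, n = 4 each). Marker shapes give the word in the file name. For *Stat2*, *Irf9*, *Irf1*, *Ifih1*, *Ifit2* and *Ifit3* all Minnelide points lie below all untreated points, while *Irf7*, *Isg15* and *Ifit1* overlap.

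Untreated tumor 1 was the highest of the 8 tumors for *Stat2*, *Irf1*, *Irf7*, *Irf9*, *Ifit3*, *Isg15* and *Ifih1*, and it was also the tumor with the most T and NK cell marker UMIs and the most unnamed nuclei. The summed level of the 9 members was 150 CPM there, against 78.5 to 99.4 CPM in the other untreated tumors and 48.4 to 60.8 CPM in the Minnelide tumors. The 10 macrophage markers summed to 277 to 914 CPM in the untreated tumors and 239 to 327 CPM in the Minnelide tumors, and the 11 endothelial markers to 855 to 3354 and 717 to 1365 CPM. Other lists reached higher in the Minnelide tumors. The 8 dendritic cell markers summed to 59.39 to 121.2 CPM in the untreated and 89.53 to 148 CPM in the Minnelide tumors, and the 7 pericyte markers to 409.9 to 612 and 492.8 to 664.6 CPM. The part of these cells in the result was not tested. Without untreated tumor 1, all 9 members kept a negative fold change and 6 of the 9 were lower at an unadjusted p under 0.05, as were 6.18% of all genes, with *Irf1* at -0.59 ± 0.27 (SE; unadjusted p = 0.0616 in edgeR). Leaving out Minnelide tumor 1 left 4 of the 9 members lower at an unadjusted p under 0.05, beside 4.35% of all genes. Each untreated tumor also shared a pair of cell barcode bases with 1 Minnelide tumor, and with these bases as a block, added after the data were seen, all 9 fold changes stayed negative and 3 of the 9 (*Stat2*, *Ifit3* and *Ifih1*) were lower at an unadjusted p under 0.05, beside 3.84% of all genes.

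Members were read in 7 marker-defined classes to see where they were transcribed. Macrophage-like nuclei had the highest mean level of 8 members and fibroblast-like nuclei that of *Ifit1*, while the lowest mean fell to myocyte-like nuclei for 3 members, osteoclast-like nuclei for 3, tumor-like nuclei for 2 and pericyte-like nuclei for 1. These means pool both groups in unequal shares, since macrophage-like nuclei came from 3 untreated and 4 Minnelide tumors, osteoclast-like nuclei from 4 and 3, and pericyte-like nuclei from 4 and 2. Within the untreated tumors macrophage-like nuclei were again highest for 8 members, and within the Minnelide tumors for 6. The exceptions in the Minnelide tumors, besides *Ifit1*, were *Isg15*, with 3.33 CPM in pericyte-like and 3.04 CPM in macrophage-like nuclei, and *Irf1*, with 28.52 CPM in endothelial-like and 28.50 CPM in macrophage-like nuclei. Within a tumor, macrophage-like nuclei were above pericyte-like nuclei for *Isg15* in 2 of 5 tumors and above fibroblast-like nuclei for *Ifit3* in 3 of 7. *Stat2* averaged 64.3 ± 24.3 CPM in macrophage-like nuclei (SD over tumors of both groups, n = 7) and 55.3 ± 20.7 CPM in endothelial-like nuclei (n = 8). It averaged 40.8 ± 15.1 CPM in fibroblast-like nuclei (n = 8) and 39.9 ± 12.7 CPM in pericyte-like nuclei (n = 6). Tumor-like nuclei (25.8 ± 10.7 CPM, n = 8), osteoclast-like nuclei (21.8 ± 7.83 CPM, n = 7) and myocyte-like nuclei (19.3 ± 5.53 CPM, n = 8) followed. Within each tumor, *Stat2* was higher in endothelial-like than in tumor-like nuclei in 8 of 8 tumors and in macrophage-like than in tumor-like nuclei in 7 of 7.

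*Ifih1* spread widely between classes. Macrophage-like nuclei held 62.4 ± 23.3 CPM (SD, n = 7), pericyte-like nuclei 29.4 ± 13.4 (n = 6), endothelial-like nuclei 28.7 ± 17.9 (n = 8) and fibroblast-like nuclei 22.3 ± 8.86 (n = 8). In the untreated tumors alone, pericyte-like nuclei, at 26.8 CPM, were below endothelial-like nuclei, at 40.6 CPM. Osteoclast-like nuclei held 10.8 ± 8.53 CPM (n = 7), myocyte-like nuclei 8.47 ± 4.50 (n = 8) and tumor-like nuclei 7.20 ± 3.56 (n = 8). Tumor-like nuclei were below the macrophage-like nuclei of the same tumor in 7 of 7 tumors, and below fibroblast-like and endothelial-like nuclei in 8 of 8. *Irf1* ran from 42.5 ± 19.7 CPM in macrophage-like to 8.51 ± 6.18 CPM in myocyte-like nuclei (SD, n = 7 and 8), with tumor-like nuclei at 17.1 ± 10.4 CPM. *Ifit2* stood at 11.2 ± 7.25 CPM in macrophage-like and 9.23 ± 5.88 CPM in fibroblast-like nuclei, against 1.97 ± 1.3 CPM in tumor-like nuclei, below the fibroblast-like nuclei of the same tumor in 8 of 8 tumors.

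Among 54 pairs of classes next to each other in the order of a member's means, 5 had an unadjusted p under 0.05 in the exact two-sided sign-flip permutation test over tumors and 0 passed after Benjamini-Hochberg adjustment. With 5 to 8 tumors a pair cannot go below an exact p of 0.0625 to 0.00781, so a single pair that differed in every tumor could hardly pass over 54 pairs, and the smallest adjusted p was 0.281. In 3 pairs every tumor gave the same order. These were *Stat2* in endothelial-like over fibroblast-like nuclei (8 of 8 tumors, mean log2 difference 0.42, exact p = 0.00781), *Ifih1* in fibroblast-like over osteoclast-like nuclei (7 of 7, 1.20, exact p = 0.0156) and *Ifih1* in macrophage-like over pericyte-like nuclei (5 of 5, 1.29, exact p = 0.0625). The other pairs with an unadjusted p under 0.05 were *Irf1* in tumor-like over myocyte-like nuclei (7 of 8 tumors), *Irf1* in fibroblast-like over tumor-like nuclei (7 of 8) and *Irf7* in endothelial-like over fibroblast-like nuclei (6 of 8). Free RNA in droplets adds UMIs to every class, so a low level in a class is an upper limit of what its nuclei held.

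**Figure D2:**
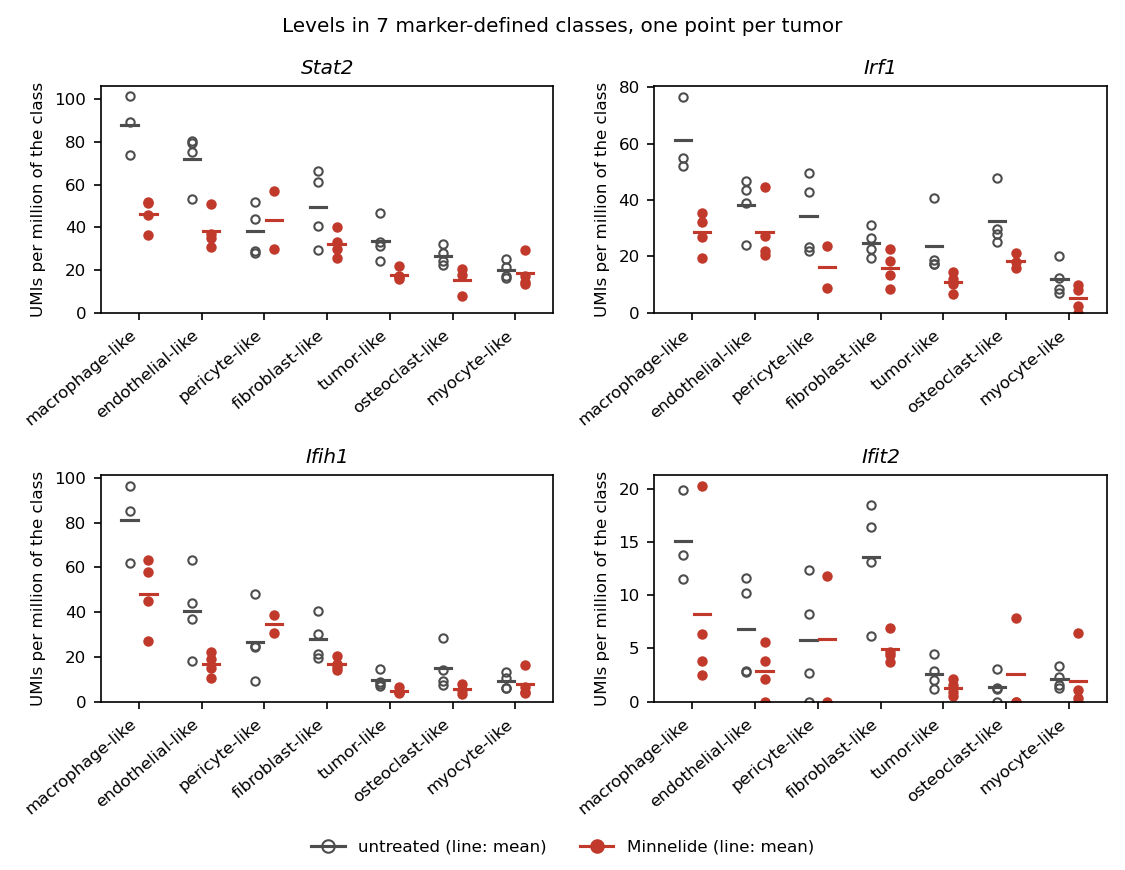
CPM within a class for *Stat2*, *Irf1*, *Ifih1* and *Ifit2*, 1 point per tumor with at least 20 nuclei of that class, open for untreated and filled for Minnelide, lines at group means. Over all tumors, macrophage-like nuclei lie highest by mean for all 4 genes, and tumor-like nuclei lie below macrophage-like, endothelial-like and fibroblast-like nuclei by mean.

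Tumor-like nuclei held the largest share of member UMIs of any class in 6 of 8 tumors. In untreated tumor 1 unnamed nuclei held 55.5% and tumor-like nuclei 13% of them, and in Minnelide tumor 2 unnamed nuclei held 29.2% and tumor-like nuclei 25.8%. In Minnelide tumor 3 tumor-like nuclei held 76.2% of all UMIs and 61.9% of member UMIs, and in untreated tumor 2 they held 70% and 49.7%. Fibroblast-like nuclei of untreated tumor 2 held 14.7% of all UMIs and 23.4% of member UMIs. Macrophage-like nuclei of that tumor held 1.68% of all UMIs and 5.5% of member UMIs.

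Within tumor-like nuclei, all 9 members again had lower means in the Minnelide tumors. *Stat2* was measured at 46.8, 24.2, 31.0 and 33.1 CPM in the untreated tumors and at 21.8, 16.6, 17.3 and 15.6 CPM in the Minnelide tumors. The groups did not overlap, and the log2 fold change was -0.76 ± 0.19 (SE; edgeR adjusted p = 0.552; DESeq2 adjusted p = 0.0454). *Ifih1* had 14.8, 7.16, 7.71 and 8.96 CPM against 4.34, 6.42, 3.91 and 4.29 CPM, a log2 fold change of -0.86 ± 0.27. *Irf1* had 40.7, 18.8, 17.3 and 17.4 CPM against 10.0, 6.53, 14.4 and 11.9 CPM, and *Irf9* 15.3, 8.32, 9.77 and 11 CPM against 6.99, 5.96, 7.44 and 7.15 CPM. For these 4 genes no Minnelide tumor overlapped an untreated one, as in 6.11% of the 13024 genes tested, and each was lower at an unadjusted p under 0.05, as were 6.6% of all genes. Of the 9 members 6 passed the filter on low counts in tumor-like nuclei, and edgeR called 0 of these and 0% of all genes, while DESeq2 called *Stat2* alone of the members, among 0.97% of genes. The 11 T and NK cell markers summed within this class to 93.5 CPM for untreated tumor 1, 9.89 to 17.6 CPM for the other untreated tumors and 2.73 to 7.68 CPM for the Minnelide tumors. The 11 endothelial markers summed there to 603 to 3627 CPM in the untreated and 421 to 922 CPM in the Minnelide tumors, the 10 macrophage markers to 226 to 637 and 199.9 to 289.9 CPM, and the 8 fibroblast markers to 1530 to 5550 and 1546 to 2699 CPM. Other lists reached higher in the Minnelide tumors. The 8 dendritic cell markers summed to 62.75 to 136.9 CPM in the untreated and 105.4 to 156.4 CPM in the Minnelide tumors, and the 7 pericyte markers to 266.4 to 599.2 and 435.5 to 656.1 CPM. The part of these cells in the result within tumor-like nuclei was not tested. The paper describes endothelial-like features in the tumor cells of an untreated tumor, and its text does not say which tumor. Marker sums do not tell such tumor cells from endothelial cells. Whether untreated tumor 1 or another tumor here was of this kind was not tested. Without untreated tumor 1 *Stat2* had a log2 fold change of -0.62 ± 0.17 and *Ifih1* -0.65 ± 0.23 in tumor-like nuclei.

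In endothelial-like nuclei *Stat2* had 79.4, 80.4, 75.4 and 53.5 CPM in the untreated tumors and 34.9, 30.8, 36.9 and 51.1 CPM in the Minnelide tumors. No tumor overlapped, as in 5.04% of the 9826 genes tested, and the log2 fold change was -0.87 ± 0.21 (SE; edgeR adjusted p = 0.233; DESeq2 adjusted p = 0.0279). *Ifih1* had 44.0, 63.1, 37.1 and 18.3 CPM against 10.7, 22.4, 15 and 18.9 CPM there, overlapping at untreated tumor 4, with a log2 fold change of -1.26 ± 0.37 (adjusted p = 0.233). Of the 9 members 4 could be tested in this class, where edgeR called 0% of genes and DESeq2 1.09%. Of the 4, 2 were lower at an unadjusted p under 0.05, as were 7.91% of genes.

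Macrophage-like nuclei were present in 3 untreated and 4 Minnelide tumors. *Stat2* had 102, 73.7 and 89.3 CPM in untreated tumors 1 to 3 and 36.5, 52.0, 51.2 and 45.6 CPM in Minnelide tumors 1 to 4. *Irf1* had 52.0, 76.6 and 54.9 CPM against 19.5, 27.0, 32.0 and 35.5 CPM. Both genes were apart between groups, as were 6.9% of the 8014 genes tested, with log2 fold changes of -0.89 ± 0.24 and -1.05 ± 0.31 (SE; edgeR adjusted p = 0.364 each). *Ifih1* overlapped between groups (96.6, 85.1 and 61.8 CPM against 27.2, 57.8, 44.8 and 63.4 CPM). These sums rest on 93 to 406 nuclei per tumor, and edgeR called 0% and DESeq2 0.0339% of genes in this class, none of them a member. Of the 4 members tested, 2 were lower at an unadjusted p under 0.05, as were 6.51% of genes. With finer clusters (Leiden resolution 2.0), which left macrophage-like nuclei in untreated tumors 1 to 3 and Minnelide tumor 2 only, the log2 fold change of *Stat2* turned to 0.18 and that of *Ifih1* to 0.48.

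In fibroblast-like nuclei *Ifit2* had 16.4, 6.18, 18.5 and 13.1 CPM in the untreated tumors and 6.90, 3.70, 4.41 and 4.64 CPM in the Minnelide tumors. Only untreated tumor 2 fell into the range of the Minnelide tumors, and the log2 fold change was -1.39 ± 0.37 (SE; edgeR adjusted p = 0.356). *Ifit3*, too sparse to test, was also apart here. It had 3.19, 8.78, 5.06 and 1.41 CPM in the untreated tumors against 0.29 to 1.3 CPM in the Minnelide tumors. The separation rested on 3 UMIs in untreated tumor 4, against 6, 3, 1 and 1 UMIs in Minnelide tumors 1 to 4. Among the 11484 genes that passed the filter on low counts here, which *Ifit3* did not, 4.14% were apart in this way. *Ifit1* was very uneven in this class, at 3.19, 12.7, 8.09 and 0.47 CPM against 1.88, 1.11, 2.06 and 4.64 CPM. Of the 9 members 6 could be tested, all with a negative fold change (51.8% of genes). In this class edgeR called 0% and DESeq2 0.761% of genes, none of them a member, and 2 of the 6 (*Ifit2* and *Ifih1*) were lower at an unadjusted p under 0.05, as were 5.45% of genes. In myocyte-like nuclei, where 4 members could be tested, 0 had an unadjusted p under 0.05 in edgeR (5.53% of genes did), and 0 members were called by edgeR or DESeq2, which called 0.00636% of genes. *Stat2* there had 16.2, 25.3, 17.1 and 21.3 CPM against 17.1, 14.5, 29.2 and 13.6 CPM (log2 fold change -0.12 ± 0.34). In pericyte-like nuclei, with 2 Minnelide tumors, 3 members could be tested and 0 had an unadjusted p under 0.05 in edgeR (2.66% of genes did), with 0 called by edgeR or DESeq2. *Stat2* there had 52.0, 28.1, 43.8 and 28.8 CPM against 30.02 and 56.9 CPM. Its log2 fold change in pericyte-like nuclei was positive, at 0.16 ± 0.45 (SE), as was that of *Ifih1*, at 0.22 ± 0.60, while that of *Irf1* was -1.01 ± 0.62.

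**Figure D3:**
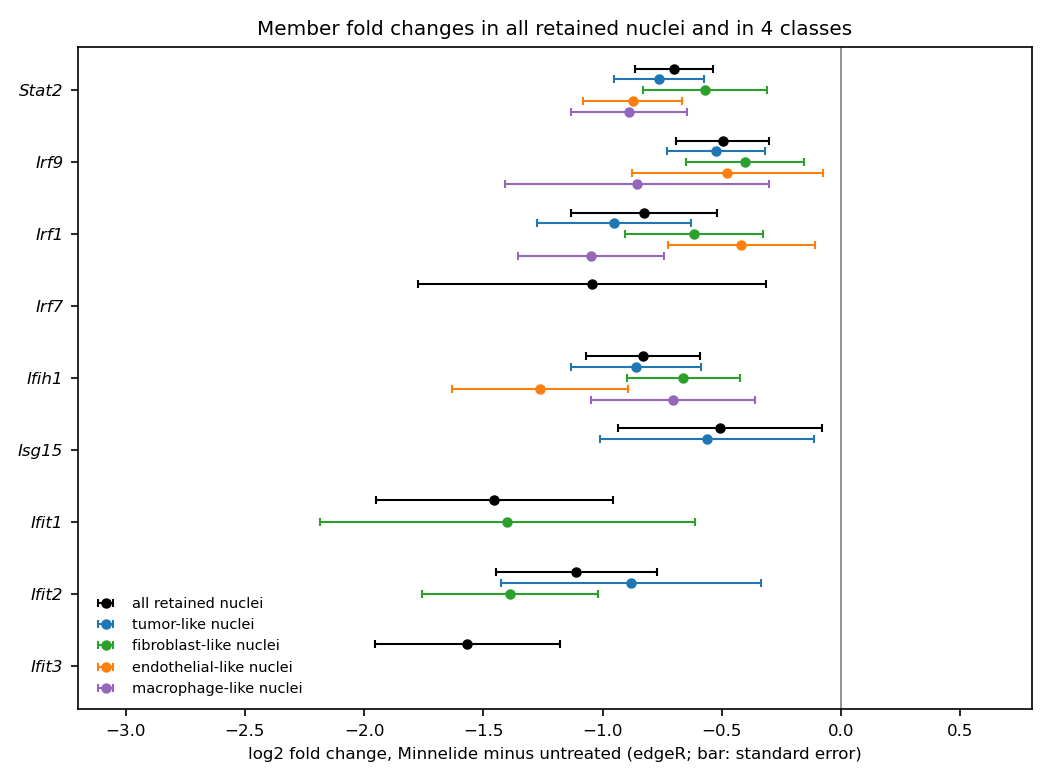
Log2 fold change of each member, Minnelide minus untreated, from edgeR in all retained nuclei and in 4 classes (bars are standard errors, and a missing point is a member that failed the filter on low counts). Every point drawn lies below 0, for *Stat2* between -0.57 in fibroblast-like and -0.89 in macrophage-like nuclei. Myocyte-like and pericyte-like nuclei are not drawn, and in pericyte-like nuclei *Stat2* (0.16) and *Ifih1* (0.22) had positive fold changes.

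Whether the difference between groups itself differed between classes was tested with tumor as a block. For none of the 9 members in fibroblast-like, 7 in endothelial-like or 8 in macrophage-like nuclei did it differ from that in tumor-like nuclei at an unadjusted p under 0.05, where edgeR called 0.00779%, 0.0079% and 0% of genes at the adjusted threshold and 9.52%, 8.78% and 8.21% at the unadjusted one. For *Stat2* the log2 fold change in fibroblast-like minus that in tumor-like nuclei was 0.21 (95% interval -0.39 to 0.81). For endothelial-like and macrophage-like nuclei the same difference was -0.14 (-0.75 to 0.47) and -0.08 (-0.71 to 0.55). For *Ifih1* the 3 differences were 0.24 (-0.41 to 0.90), -0.41 (-1.29 to 0.48) and 0.18 (-0.57 to 0.94). All 6 intervals include 0.

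The wider pathway was read from 7 lists with 97 genes in the tables besides the members. These lists were chosen with earlier results of these data known, so the counts describe them and are not independent support. Of these, 81 could be tested in all retained nuclei: 72 had a negative and 9 a positive fold change, 30 were lower and 0 higher at an unadjusted p under 0.05, and 0 were called after adjustment in edgeR. Over all genes tested, 49.3% had a negative fold change, 7.49% were lower and 2.47% higher by the same rules. The median log2 fold change of the 81 was -0.64, beside -0.83 for the members and 0.01 for all genes tested. The antiviral effectors had a median of -0.88, with 20 of 39 lower at an unadjusted p under 0.05. Nucleic acid sensors and adaptors had a median of -0.39 (4 of 13), other STAT and IRF factors -0.45 (4 of 12), interferon receptors and their kinases -0.23 (1 of 9), and ISG15 conjugation and feedback genes -0.13 (1 of 8). In tumor-like nuclei 67 of 75 tested had a negative fold change, where 49.1% of the 13024 genes tested did (6393), and the median was -0.53 beside 0.01 for all genes.

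Of 10 interferon genes listed, 8 were in the count tables, without *Ifna1* and *Ifna5*, and these 8 were almost unseen in the retained nuclei. No UMI of *Ifnb1*, *Ifna2*, *Ifna4*, *Ifnl2* or *Ifnl3* was counted in the retained nuclei of any of the 8 tumors. *Ifne* had 1 UMI there, and *Ifng* and *Ifnk* had 11 each. The *Ifit* paralogs *Ifit1bl1*, *Ifit1bl2* and *Ifit3b* had 53, 68 and 83 UMIs in the retained nuclei of the 8 tumors, too few to test. Among the other genes the smallest unadjusted p values in all retained nuclei belonged to *Irf4*, *Dtx3l* and *Parp14*. *Irf4*, a lymphoid and myeloid factor of the IRF family, had 78.3, 28.0, 7.78 and 14.8 CPM in the untreated tumors and 2.64, 1.43, 2.85 and 3.96 CPM in the Minnelide tumors (log2 fold change -3.35 ± 0.68, edgeR adjusted p = 0.464). Its level in tumor-like nuclei was 139, 34.4, 10.2 and 18.5 CPM against 2.67, 0.92, 3.05 and 4.14 CPM, and the groups did not overlap (log2 fold change -3.96 ± 0.84, edgeR adjusted p = 0.476). *Irf4* is also transcribed in B cells, and the 6 B cell markers summed there to 115 CPM in untreated tumor 1, against 5.60 to 6.96 CPM in the other untreated and 2.06 to 8.94 CPM in the Minnelide tumors, and their part in the result was not tested. Without untreated tumor 1 the log2 fold change of *Irf4* was -2.53 ± 0.47 in all retained nuclei and -2.83 ± 0.54 in tumor-like nuclei.

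*Parp14*, an ADP-ribosyltransferase induced by interferon, had 50.9, 25.4, 26.0 and 17.8 CPM in the untreated tumors and 9.06, 13.1, 11.3 and 12.8 CPM in the Minnelide tumors (log2 fold change -1.20 ± 0.29, adjusted p = 0.464). *Dtx3l*, the ubiquitin ligase that partners with PARP9, had 14.8, 6.35, 8.13 and 7.31 CPM against 2.51, 3.66, 2.74 and 4.25 CPM (-1.30 ± 0.31, adjusted p = 0.464). For all of *Irf4*, *Parp14* and *Dtx3l* the groups were apart in all retained and in tumor-like nuclei. These 3 genes were named for their small p values in these same data, so this is not independent support. Of all genes tested, 6.93% were apart in this way in all retained and 6.11% in tumor-like nuclei. Of the tested genes of the 7 lists, 24 of 81 and 24 of 75 were. The 3 genes with a positive fold change and the smallest p in all retained nuclei were *Isg20*, *Ifngr2* and *Slfn9*, none with an adjusted p below 0.757. *Ifngr2*, a subunit of the interferon gamma receptor, had 59.6, 70.1, 51.0 and 44.1 CPM in the untreated and 50.1, 41.3, 83.2 and 48.4 CPM in the Minnelide tumors. In tumor-like nuclei they were *Ifngr2*, *Usp25* and *Slfn8*, with *Slfn8* at 7.66, 7.5, 6.8 and 5.15 CPM against 1.1, 4.13, 4.88 and 18.1 CPM.

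**Figure D4:**
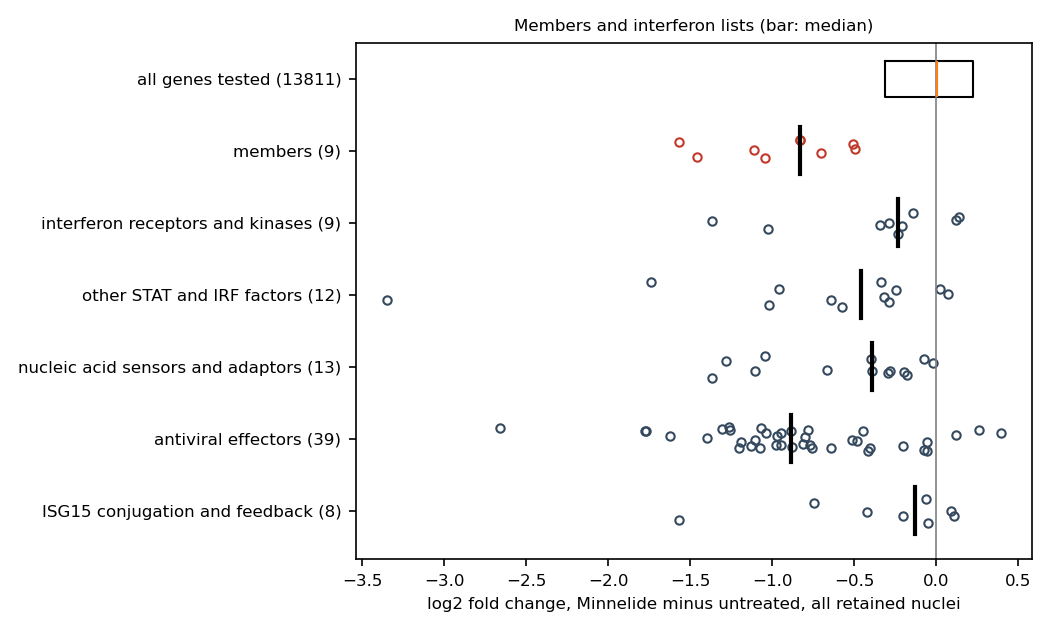
Log2 fold changes, Minnelide minus untreated, in all retained nuclei for the 9 members and the tested genes of 5 interferon lists (1 point per gene, vertical bar at the median), below a box of the quartiles of all 13811 genes tested. The medians are -0.83 for the members and -0.88 for the antiviral effectors, against 0.01 for all genes, and *Irf4* is the leftmost point.

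Over 52 sums of a class in a tumor, the genes whose log2(CPM + 1) was most like the mean of the members were *Parp14* (Pearson r = 0.83), *Usp18* (0.81), *Mndal* (0.81), *Gbp5* (0.80), *Ifi204* (0.79), *H2-Q4* (0.79), *Zfp36l2* (0.78) and *Ifi203* (0.78). The sums share tumors and differ in depth, so r is a description. Among the members, *Stat2* followed the other 8 most closely (r = 0.82) and *Ifit1* least (r = 0.42).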

How the data were processed

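Single-nucleus RNA-seq libraries (Chromium 3′ chemistry with on-chip multiplexing) were made from 8 dFLEx CDS tumors. The authors aligned reads to mm39, intronic reads included, and deposited 1 matrix of raw UMI counts per tumor. Per the submitters' processing notes the tools were bcl2fastq 2.20 and Cell Ranger 7.0.1, while the matrix headers name Cell Ranger 9.0.1. The 4 matrices of each deposited sample were taken as 4 tumors of one group, and tumor numbers are names that pair nothing.

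Nuclei with at least 200 genes and no excess of mitochondrial UMIs were kept and doublets removed, leaving 59907 of 72338 nuclei. Each tumor was clustered on its own (scanpy 1.11.5, 2000 variable genes, 30 components, Leiden resolution 1.0) and clusters were named from marker lists. The naming rules were set after the clusters were seen but before the members' values. A class was used in a tumor with at least 20 of its nuclei. CPM was computed as UMIs per 1000000 UMIs of the nuclei summed.

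Sums per tumor were tested with edgeR 4.0.16 (TMM, filterByExpr, quasi-likelihood test, Benjamini-Hochberg over all genes tested, threshold 0.05), with DESeq2 1.42.0 as an alternative, and class differences by an interaction with tumor as a block. The edgeR fits were also run on simulated counts. Their spread was set in advance and was the same for every gene, so this checked the fitting and not its power on these tumors. Single members were compared by exact two-sided permutation of log2(CPM + 1). The retained nuclei gave 15997957 to 62498892 UMIs per tumor, which sets the counting error of low members such as *Irf7* and *Ifit1*.

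The members, the 7 pathway lists and the markers were chosen with earlier results of these data known. Other pathway genes are named where they had the 3 smallest p values in a direction in all retained or tumor-like nuclei, and the 8 genes most like the members by Pearson r over sums with at least 100000 UMIs. Promoters and positions came from GRCm39 with GENCODE M39. Alternatives were DESeq2, its size factors in edgeR, no filter on low counts, no filter on nuclei, no doublet removal, Leiden resolution 2.0, pseudocounts of 0.1 and 5, and leaving out each tumor. Library totals without TMM, tumor-like joined with unnamed nuclei, leaving out shared barcodes, and a block by cell barcode bases 8 and 9 were added after the data were seen.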

Additional observations from a re-analysis of the deposited data

Results flagged for a closer look

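In 6 of 36 groups of 4 tumors, a member's highest or lowest tumor lay far from the other 3 relative to the range of the group, where chance gives about 1 in 20 groups. In all retained nuclei these were *Irf9* in untreated tumor 1, at 18.2 CPM, and *Ifit1* in untreated tumor 4, at 0.563 CPM. Among tumor-like nuclei they were *Irf1* and *Irf7* in untreated tumor 1, at 40.7 and 2.42 CPM. *Irf7* in Minnelide tumor 3, at 0.104 CPM, and *Ifih1* in Minnelide tumor 2, at 6.42 CPM, were the others. The value of *Irf7* in Minnelide tumor 3 rests on 3 UMIs.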

How the results depend on the processing

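Of 144 alternative values of the members' fold changes in all retained nuclei, 142 kept their direction and their side of the threshold, as did 101 of 102 in tumor-like nuclei and 196 of 199 in fibroblast-like, endothelial-like and macrophage-like nuclei. As edgeR called no member in these sets, keeping the side means only that the alternative did not call the member either. The alternatives reuse the same tumors, so these counts are not independent support. DESeq2 called 2 members and 196 genes in all retained nuclei, 1 member and 163 genes in tumor-like nuclei and 1 member in endothelial-like nuclei, where edgeR called 0. With DESeq2 the log2 fold change of *Stat2* was -0.67 in all retained, -0.73 in tumor-like and -0.87 in endothelial-like nuclei, and that of *Ifit3* was -1.56 in all retained nuclei. Leaving out each tumor in turn left 4 to 7 members with an unadjusted p under 0.05 in all retained nuclei. It was 4 without Minnelide tumor 1, where 4.35% of all genes were lower, and 6 without untreated tumor 1, where 6.18% were. In tumor-like nuclei 3 to 4 members remained. Groups were apart for 6 to 8 members in all retained nuclei, a pattern that is easier to reach with a tumor left out. Shares of all genes are not given for the other omissions or for groups apart, so these counts have no background beside them. With a tumor left out, edgeR called 0 to 1 genes (1 without Minnelide tumor 2). At Leiden resolution 2.0 the log2 fold changes in macrophage-like nuclei were 0.18 for *Stat2* and 0.48 for *Ifih1*, with only untreated tumors 1 to 3 and Minnelide tumor 2 holding at least 20 such nuclei. With no doublet removal, untreated tumor 4 gave no fibroblast-like nuclei. No paired analysis was possible because the labels give no replicate numbers, and tumors that carry the same barcode bases are not stated to share an animal or a batch. With these bases as a block, an alternative added after the data were seen and run in 4 sets of nuclei, 3 members had an unadjusted p under 0.05 in all retained nuclei and edgeR called 0 members in each set.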
